A study of Mus musculus with 48 samples.

Results

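The kinesin superfamily was described in the hippocampus of adult female mice. Its members were taken as the protein-coding rows of the deposited count table whose gene name begins with Kif and a digit, which gave 38 of 48440 genes (38 of 22021 protein-coding genes). Another 3 rows with such a name are pseudogenes or other non-coding genes and were left out. One member, Kif1bp, encodes a protein that binds a kinesin and has no motor of its own. RNA from both hippocampi of 48 C57BL/6 animals aged 3 months was sequenced, 1 library per animal. Control offspring (C) came from undisturbed dams, with 8 libraries labelled 5-Htt+/+ and 7 labelled 5-Htt+/-. Offspring of dams restrained repeatedly in the last part of pregnancy (prenatal stress, PS) were divided by the study on their time with a social target in a 3-chamber test. Socially affected (SA) offspring, susceptible in the labels, gave 8 libraries of either genotype label. Socially unaffected (SU) offspring, resilient in the labels, gave 8 libraries labelled 5-Htt+/+ and 9 labelled 5-Htt+/-. The 5-Htt allele is a constitutive deletion of the serotonin transporter, every animal is female, and the litter of an animal is not in the labels. Libraries that share a litter are not independent, so p-values may be smaller than they should be.

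Kinesins are motor proteins that use ATP to move along microtubules. Transport kinesins carry vesicles, organelles and RNA along axons and dendrites, and the adult hippocampus is rich in them. Mitotic kinesins build the spindle, move chromosomes and close the midbody in dividing cells, which in the adult hippocampus are chiefly progenitors and glia. A further set builds or regulates cilia and is used by ependymal cells and by the primary cilium.

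Total counts ranged from 16488405 to 38213754 per library (median 24125648). The gene of the label, Slc6a4, separated the labels without overlap, with more reads in the libraries labelled 5-Htt+/-. These held 14.9 ± 1.08 CPM (SD, n = 24, 12.8 to 17.0), CPM being the read count relative to the scaled library size. Those labelled 5-Htt+/+ held 0.139 ± 0.0740 CPM (SD, n = 24, 0 to 0.261). Why the level was higher with the label of a deleted copy was not tested. Genotype is therefore given throughout as labelled. The first principal component of the log2 CPM of the 48 libraries held 7.63% of the variance, and 6 libraries lay lowest on it, namely 5-Htt+/- C replicates 1, 3 and 7, 5-Htt+/- SU replicate 8, 5-Htt+/+ C replicate 7 and 5-Htt+/+ SA replicate 5. Markers of the choroid plexus varied strongly, with a summed level of 28.7 to 957 CPM over the libraries. Bulk values cannot tell fewer cells of a type from less RNA per cell.

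Transport kinesins held nearly all kinesin RNA. The 15 transport members made up 93.4% of the CPM summed over members, against 4.80% for the 5 other members, 1.36% for the 12 mitotic and 0.487% for the 6 cilium members. Compared per kilobase of exon, Kif5a, a neuronal heavy chain of conventional kinesin, had the highest level at 225.9 ± 21.4 CPM per kb (SD, n = 48). It was followed by its relative Kif5c at 107 ± 5.11 CPM per kb and by Kif1a, the carrier of synaptic vesicle precursors, at 95.6 ± 8.61 CPM per kb. Every library had more Kif5a per kb than any library had of another kinesin, whereas the ranges of Kif5c (87.4 to 117) and Kif1a (77.8 to 122) overlapped. The lowest transport member was the endosomal motor Kif16b at 1.50 ± 0.147 CPM per kb.

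Among mitotic members, Kif11, the motor that pushes spindle poles apart, stood highest at 5.79 ± 0.509 CPM per kb. Its lowest library (4.83) lay above the highest library of every other mitotic member. Kif20a followed at 2.23 ± 0.213, but 29.3% of its exon length is shared with Cdc23 on the opposite strand, and the strand setting of the counts is not known. Kif14, which acts with citron kinase in cytokinesis, lay at 0.496 ± 0.0728 CPM per kb, close to Kif15 (0.551 ± 0.0943) with overlapping ranges. The lowest members that passed the filter were Kif18b (0.0913 ± 0.0440) and the microtubule depolymerase Kif2c (0.0859 ± 0.0305). Kif2b and Kif12 reached at most 1 and 2 reads in any library and did not pass the filter of 5 reads in 3 libraries, which left 36 members for testing. Cilium members spanned 0.434 CPM per kb for Kif24 to 1.44 for Kif9. Kif1bp (30.4 ± 1.73) and the depolymerase Kif2a (12.9 ± 1.67) led the other members. On the opposite strand, 10.1% of the exon length of Kif1bp is shared with another gene and 19.2% of that of Kif2a with Dimt1.

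The remaining transport members filled the range between. Kif1b, a carrier of mitochondria and synaptic vesicle precursors, stood at 44.7 ± 2.05 CPM per kb. The subunits of heterotrimeric kinesin-2 were unequal, with Kif3a at 42.4 ± 4.53, Kif3c at 29.7 ± 2.24 and Kif3b at 15.6 ± 0.788 CPM per kb, although 40.7% of the exon length of Kif3c is shared with other genes. Kif5b, the ubiquitous heavy chain of conventional kinesin, ran from 9.41 to 32.4 CPM per kb, the widest relative spread among transport members (CV 20.7%), whereas Kif5c had a CV of 4.76%. Kif21a stood at 33.4 ± 3.22, Kif17, which carries NMDA receptor subunits along dendrites, at 14.9 ± 1.32, and Kif13b at 2.66 ± 0.247 CPM per kb.

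Of the remaining mitotic members, the chromosome-arm motor Kif22 stood at 1.29 ± 0.176 CPM per kb and Kif18a, which shortens spindle microtubules at their plus ends, at 0.140 ± 0.0384. Kif4 stood at 0.234 ± 0.0394, Kif20b at 0.131 ± 0.0415 and Kif23 at 0.120 ± 0.0355 CPM per kb, and the ranges of the last pair overlapped with that of Kif18a. Kif6 stood at 1.16 ± 0.142 and the Hedgehog regulator Kif7 at 0.776 ± 0.109 CPM per kb, with 20.3% of the exon length of Kif7 shared with Ticrr and another gene on the opposite strand. Kif26b stood at 1.97 ± 0.265 and Kif26a at 0.842 ± 0.117 CPM per kb.

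**Figure D1:**
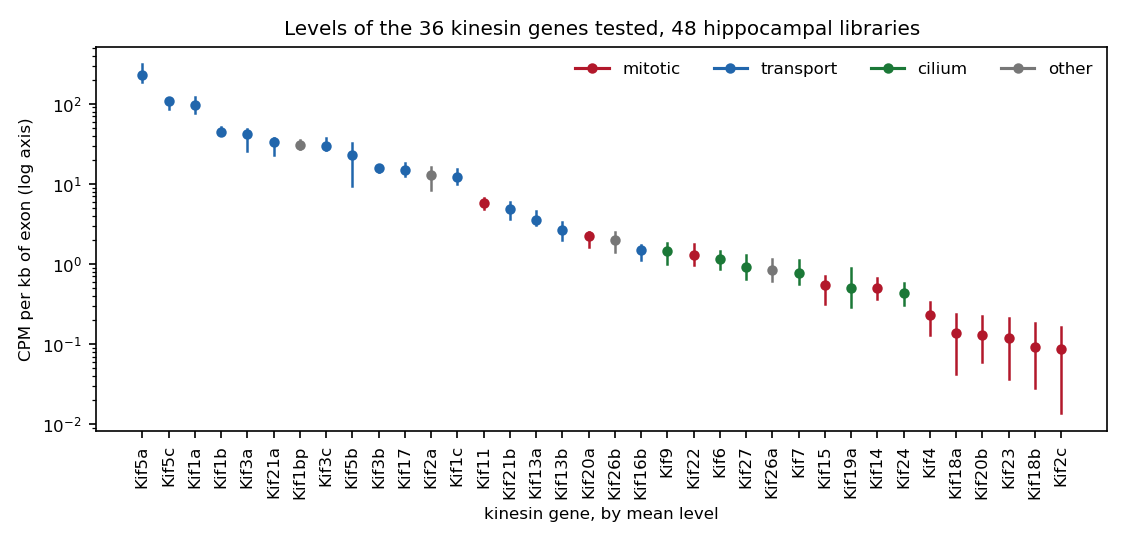
Level of each of the 36 kinesin genes tested, as CPM per kilobase of exon on a log axis, with genes ordered by mean. Points are means over 48 libraries, lines run from the lowest to the highest library, and colours give the role. Kif5a stands at 225.9 and Kif2c at 0.0859 CPM per kb, the 6 lowest genes are mitotic, and Kif11 stands 14th.

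Promoters are shown because mitotic and transport members differed in letters that the choice by name did not use. Genes of the late cell cycle often carry a cell cycle genes homology region, whose core is TTTGAA, near a CCAAT box bound by the factor NF-Y. RefSeq promoter entries (GRCm38.p6) were found for 31 of 38 members, and windows of 250 bases before to 20 bases after the start were searched on both strands for these letters. The homology region core was present in 8 of 11 mitotic members with an entry, 1 of 11 transport, 1 of 5 cilium and 1 of 4 other members, against 16.8% of all 32851 promoters. The transport member is Kif1a, through an entry far downstream of its first start. The CCAAT box was present in 7 of 11 mitotic, 3 of 11 transport, 3 of 5 cilium and 1 of 4 other members, against 35.4% of all promoters. A member counted if any of its entries held the letters, whereas the shares of all promoters are of single entries, so the units differ for members with more than 1 entry. A match of letters is a description and not a bound site.

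The windows of Kif11 and Kif23, a mitotic pair with both motifs close to the start, are printed beside Kif14 and the transport member Kif1a. Capitals mark TTTGAA or CCAAT on either strand (TTCAAA and ATTGG when the match is on the other strand), and no match of one overlaps the other here. They lie at chr19:37376132-37376401 (+), chr9:61946780-61947049 (-), chr1:136467598-136467867 (+) and chr1:93101855-93102124 (-).
Kif11: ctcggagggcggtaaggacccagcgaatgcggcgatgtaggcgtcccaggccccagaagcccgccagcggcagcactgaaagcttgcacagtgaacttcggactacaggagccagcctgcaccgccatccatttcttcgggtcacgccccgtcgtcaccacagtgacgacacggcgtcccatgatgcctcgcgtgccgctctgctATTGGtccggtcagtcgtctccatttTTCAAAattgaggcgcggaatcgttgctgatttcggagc
Kif23: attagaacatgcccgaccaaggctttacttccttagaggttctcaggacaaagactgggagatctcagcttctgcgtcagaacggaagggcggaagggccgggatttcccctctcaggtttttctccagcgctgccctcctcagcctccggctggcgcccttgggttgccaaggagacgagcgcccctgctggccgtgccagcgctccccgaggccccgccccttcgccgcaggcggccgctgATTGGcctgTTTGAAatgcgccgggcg
Kif14: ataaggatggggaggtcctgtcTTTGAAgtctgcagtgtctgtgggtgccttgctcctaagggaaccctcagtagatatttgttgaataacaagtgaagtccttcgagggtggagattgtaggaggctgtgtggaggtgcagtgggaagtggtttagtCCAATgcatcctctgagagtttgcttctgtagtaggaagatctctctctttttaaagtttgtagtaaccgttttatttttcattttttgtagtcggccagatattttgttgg
Kif1a: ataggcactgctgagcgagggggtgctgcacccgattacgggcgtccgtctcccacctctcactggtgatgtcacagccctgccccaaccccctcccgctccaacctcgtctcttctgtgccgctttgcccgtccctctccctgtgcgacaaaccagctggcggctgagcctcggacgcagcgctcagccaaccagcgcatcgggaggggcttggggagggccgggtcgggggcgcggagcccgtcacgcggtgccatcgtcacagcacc
In Kif11 the motifs begin 19 and 45 bases before the start, whereas in Kif14 they begin 228 and 92 bases before it. Relative to the RefSeq start of Kif14, its first transcript start in GENCODE M21 lies at -1505 bases and the nearest one 87 bases downstream, so this window may not be the only promoter of the gene. The Kif1a window printed holds neither motif, whereas its downstream entry, not printed, holds the homology region core 44 bases before the start. The bases after the start lie in 6 annotated transcripts for that entry and in 1 for the printed one.

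Kif14 (ENSMUSG00000041498.13, chr1:136466343-136531511, plus strand, GRCm38) was covered by 64 to 206 reads per library (median 128). No exon of it is shared with another gene, although a pair of processed pseudogenes lies inside its span on the same strand, of which Gm29485 reached 54 reads. In libraries labelled 5-Htt+/+, Kif14 stood at 4.15, 4.84 and 6.48 CPM (lowest, median and highest) in C. It stood at 4.27, 4.72 and 6.04 CPM in SA and at 3.84, 4.80 and 5.85 CPM in SU. The 3 groups overlapped almost entirely.

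In libraries labelled 5-Htt+/-, Kif14 stood at 4.45, 5.49 and 6.85 CPM in C, at 4.80, 5.56 and 6.49 CPM in SA and at 3.94, 4.90 and 6.82 CPM in SU. These groups overlapped as well. The three-way contrast, the difference of SA and SU in 5-Htt+/+ minus that in 5-Htt+/-, was -0.08 on the log2 scale (SE 0.14, 95% interval -0.37 to 0.20), with an unadjusted p of 0.55 in edgeR's quasi-likelihood test. Against controls the log2 fold changes were -0.02 (SA) and -0.04 (SU) in 5-Htt+/+ and 0.05 (SA) and -0.05 (SU) in 5-Htt+/-, each with an SE of 0.10. SA exceeded SU by 0.10 (SE 0.10) in 5-Htt+/- and by 0.01 (SE 0.10) in 5-Htt+/+.

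Exact two-sided permutation tests on CPM gave unadjusted p of 0.29 to 0.82 for the 6 Kif14 comparisons, and 0.89 to 0.92 after Benjamini-Hochberg adjustment over the 18 tests of Kif14, Kif5a and Kif1a. The only contrast of Kif14 with an unadjusted p under 0.05 was that of genotype labels over C, SA and SU. There it was 0.14 higher in 5-Htt+/- on the log2 scale (SE 0.06, unadjusted p = 0.024, adjusted p = 0.93). Group means were 4.98, 4.89 and 4.80 CPM in C, SA and SU labelled 5-Htt+/+ and 5.44, 5.57 and 5.18 CPM in those labelled 5-Htt+/-, but the ranges overlapped.

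**Figure D2:**
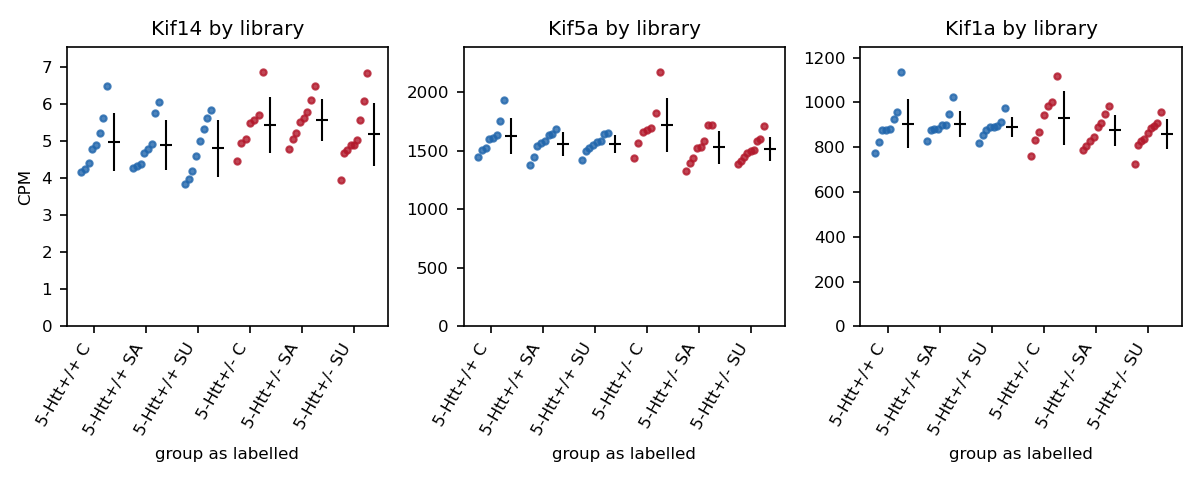
Kif14, Kif5a and Kif1a in every library, in CPM, by group as labelled. Points are libraries sorted by value within a group, and the bars beside them are mean ± SD (n = 7 to 9). Kif14 lies between 3.84 and 6.85 CPM with all groups overlapping, and the highest Kif5a library (2168 CPM) is a 5-Htt+/- control.

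Across the family, edgeR's quasi-likelihood test called 0 of 36 members at an adjusted p under 0.05 in each of the 8 contrasts, and DESeq2 and edgeR's likelihood ratio test also called 0. The share of all 31208 genes called was 0.00% in the three-way contrast and in SA against SU of either genotype, 0.0128% in SA and 0.0192% in SU against C in 5-Htt+/+, 0.0288% in SA and 0.0160% in SU against C in 5-Htt+/-, and 0.0224% between genotypes. Counts at an unadjusted p under 0.05 serve as descriptions only, each with the share of all genes. In the three-way contrast 1 member had such a p (3.70% of all genes). In 5-Htt+/+ there were 2 in SA against C (3.07%), 2 in SU against C (3.37%) and 0 in SA against SU (3.90%). In 5-Htt+/- there were 5 in SA against C (12.1%), 7 in SU against C (15.5%) and 3 in SA against SU (3.79%), and between genotypes 2 (5.01%). In the comparisons with 5-Htt+/- controls these were 13.9% and 19.4% of members. By direction, 2.78% of members were higher in SA at this p and 11.1% lower, against 5.17% and 6.96% of all genes. In SU 2.78% of members were higher and 16.7% lower, against 6.74% and 8.71% of all genes.

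**Figure D3:**
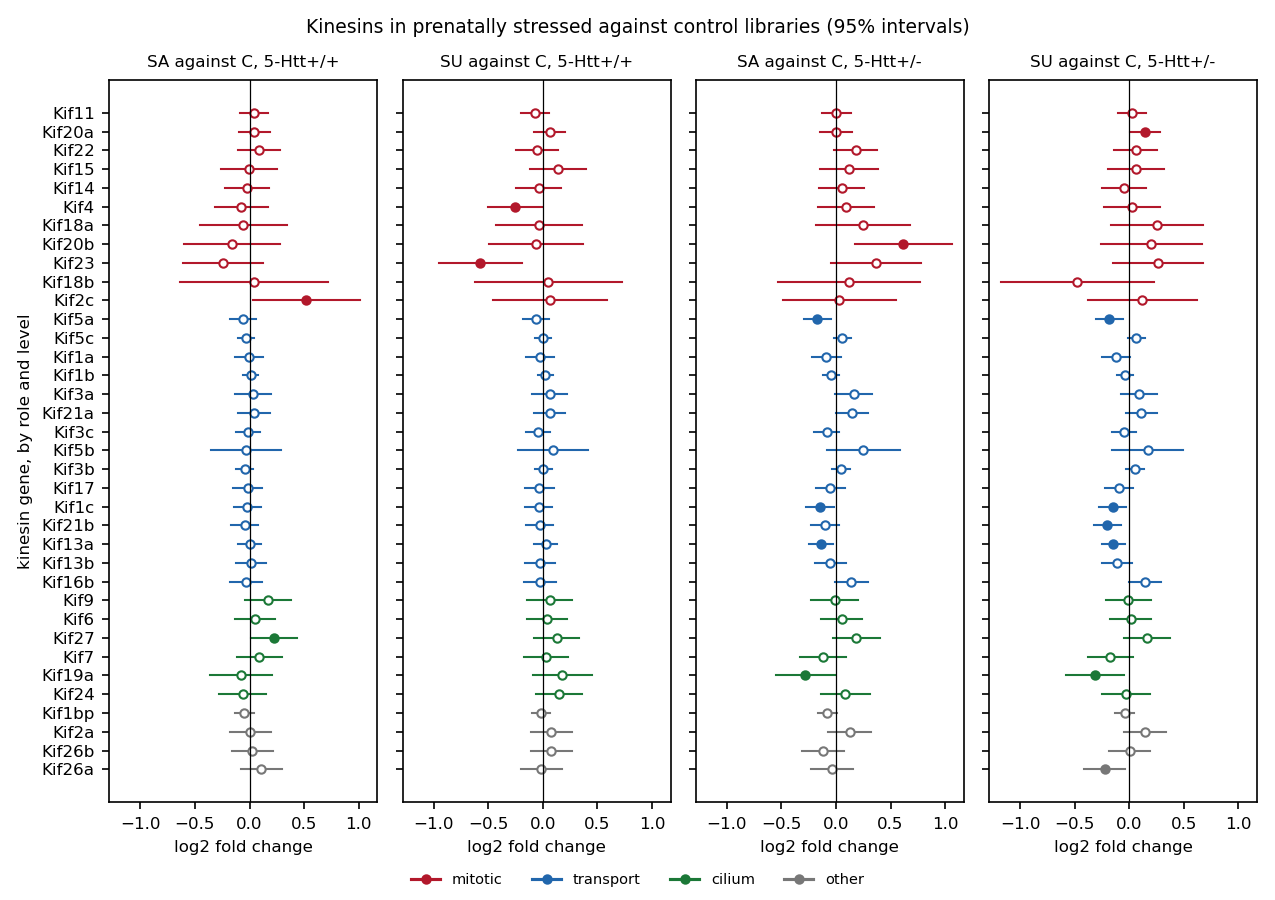
Log2 fold changes of 36 kinesins in SA and SU against C, by genotype label, with 95% intervals from the edgeR fit. Filled points have an unadjusted p under 0.05 and none has an adjusted p under 0.05. In SA 5-Htt+/- all 11 mitotic points (red) lie above 0, by 0.0023 to 0.62.

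Transport kinesins with low p in 5-Htt+/- libraries were lower in both stressed groups than in the controls, which the 2 comparisons share. Kif5a stood at 1436, 1677 and 2168 CPM in C (lowest, median and highest), at 1328, 1525 and 1715 CPM in SA and at 1383, 1494 and 1711 CPM in SU. The controls were high as a group but overlapped with both others, and the highest of them was replicate 3. Relative to C, Kif5a was -0.17 in SA (SE 0.06, adjusted p = 0.33) and -0.18 in SU (SE 0.06, adjusted p = 0.17). In exact permutation tests on CPM the unadjusted p was 0.061 and 0.018, and the adjusted p 0.55 and 0.32.

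Kif21b, a motor that also slows microtubule growth, had the smallest p of any member. It stood at 56.7, 65.0 and 71.6 CPM in 5-Htt+/- C and at 44.7, 57.6 and 62.2 CPM in SU, where it was -0.20 (SE 0.06, unadjusted p = 0.0021, adjusted p = 0.14). In SA its values were 53.2, 57.9 and 71.7 CPM. The groups overlapped, and 4 of 9 SU libraries lay below every control.

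Kif13a, a carrier of recycling endosomes, was -0.14 in SA and -0.15 in SU (SE 0.05 each, adjusted p = 0.34 and 0.20). Kif1c, which works in Golgi traffic and the transport of dense core vesicles, was -0.14 in SA and -0.15 in SU (SE 0.06 each, adjusted p = 0.38 and 0.25). Kif5c had the opposite sign, 0.06 in both (SE 0.04), as had Kif5b, 0.25 and 0.17 (SE 0.17 and 0.16). Kif1a was -0.09 in SA and -0.12 in SU with SE 0.07 and 0.06. Over the 15 transport members 6 were higher and 9 lower in SA and also in SU, with median log2 fold changes of -0.05 in both, against -0.0084 and -0.0028 for all genes. In 5-Htt+/+ no transport member had an unadjusted p under 0.05, and the medians were -0.02 in SA and in SU.

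The comparisons were also fitted without the 6 libraries that lay lowest on the first principal component, 3 of which are 5-Htt+/- controls. Without them the members with an unadjusted p under 0.05 went from 5 to 0 in SA and from 7 to 0 in SU against C in 5-Htt+/-, while the share of all genes went from 12.1% to 5.33% and from 15.5% to 7.52%. Kif5a was then -0.05 and -0.08 and Kif21b in SU was -0.14. The 6 were picked on the same expression values. After subtracting group means, Kif5a and Kif21b had a Spearman rho of -0.56 and -0.57 with the component. Their differences can therefore shrink through the choice itself, here and below, and fewer 5-Htt+/- controls remain for the test. Leaving out 1 library changed the counts too, and the range was 3 to 11 for both comparisons. Without 5-Htt+/- C replicate 4 there were 11 in each, without C replicate 3 there were 3 in SU, and without C replicate 7 there were 3 in SA.

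Markers of oligodendrocytes and of microglia moved with the transport members that were lower. In 5-Htt+/- 9 of 10 oligodendrocyte markers were lower in SA and in SU than in C, 7 and 8 of them at an unadjusted p under 0.05, and none was called. Their summed level was 2551 to 4376 CPM in C, 2216 to 3306 in SA and 2253 to 2871 in SU, and Mag was -0.53 and Cldn11 -0.47 in SU (adjusted p = 0.057 and 0.065). Across the 48 libraries, after subtracting group means, the mean log2 CPM of the oligodendrocyte markers had a Spearman rho of 0.51 with Kif13a and 0.41 with Kif5a, but 0.20 with Kif1c and -0.06 with Kif21b. Microglia markers were lower as well, 5 of 6 in SA (3 at an unadjusted p under 0.05) and 5 of 6 in SU (1 at such a p), with medians of -0.13 and -0.11. Their summed level was 246 to 290 CPM in C, 249.9 to 271 in SA and 244 to 282 in SU. The rho with microglia markers was 0.49 for Kif5a, 0.45 for Kif1c, 0.07 for Kif21b and -0.03 for Kif13a. Of the marker lists for astrocytes, endothelium, immature neurons, thalamus and hippocampal subfields, each had at most 1 gene at an unadjusted p under 0.05 in any comparison of SA or SU with C. Of the 9 neuronal markers, 5 were higher and 4 lower than C in SA and also in SU of 5-Htt+/-. At such a p, 1 was lower in SA, and 1 was higher and 1 lower in SU. The part of these cell types in the kinesin values was not tested.

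Mitotic kinesins mostly had the other sign in 5-Htt+/-, with few low p. In SA all 11 tested members were higher than in C, by 0.0023 to 0.62 on the log2 scale (median 0.12, against -0.0084 for all genes). In SU 9 of 11 were higher (median 0.06, against -0.0028 for all genes), with Kif14 and Kif18b lower at -0.05 and -0.47. In either comparison 1 mitotic member had an unadjusted p under 0.05, and both comparisons share the controls. Kif20b, a cytokinesis motor also needed for neuronal polarity, stood at 0.422, 0.832 and 1.18 CPM in C and at 0.661, 1.18 and 1.56 CPM in SA, with a log2 fold change of 0.62 (SE 0.22, unadjusted p = 0.0074, adjusted p = 0.33). The groups overlapped, 4 of 8 SA libraries exceeded every control, and the lowest control values came from replicates 1 and 7. Without the 6 libraries named above 8 of 11 were higher in SA (median 0.04) and 5 of 11 in SU (median -0.04), and Kif20b was 0.31 (unadjusted p = 0.185). The count of 11 in SA also stood under TMM scaling, DESeq2 and with the choroid plexus score as a term.

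In 5-Htt+/+ the mitotic members had no common direction, with 5 of 11 higher in SA and 4 of 11 in SU. Kif23, the motor of the centralspindlin complex at the midbody, stood at 0.760, 1.15 and 1.49 CPM in C and at 0.290, 0.823 and 1.02 CPM in SU. It was -0.57 there (SE 0.19, unadjusted p = 0.0041, adjusted p = 0.998), and 7 of 8 controls exceeded 7 of 8 SU libraries, the lowest of which was replicate 3. Without that library it was -0.46. Kif4, a chromosome-bound motor, was -0.25 (SE 0.12) in the same comparison, and 15.1% of its exon length is shared with Pdzd11 on the opposite strand. Kif2c was 0.52 higher in SA than in C (SE 0.24, unadjusted p = 0.038), on 1 to 17 reads per library. In 5-Htt+/-, Kif20a was 0.14 higher in SU than in C (SE 0.07, unadjusted p = 0.0447). In SA against SU of 5-Htt+/-, Kif20b was 0.41 (SE 0.20, unadjusted p = 0.0431) and Kif20a -0.14 (SE 0.07, unadjusted p = 0.0399), 1 mitotic member in either direction.

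The cell division list, 20 genes of the mitotic machinery that are no kinesins, had 14 of 20 genes higher in SA and 14 of 20 in SU against C in 5-Htt+/-. In SA 3 had an unadjusted p under 0.05, led by the spindle checkpoint kinase Ttk at 0.69 (SE 0.21, adjusted p = 0.26) and by Cenpf at 0.38. Both lay low, with means over the 48 libraries of 0.469 CPM for Ttk (0.190 to 0.871) and 1.43 CPM for Cenpf (0.573 to 2.07). Its mean log2 CPM was 0.74 ± 0.09 (SD, n = 7) in C, 0.87 ± 0.10 (n = 8) in SA and 0.80 ± 0.15 (n = 9) in SU. Over the 48 libraries mitotic kinesins followed this list only weakly, with rho from -0.25 for Kif11 to 0.38 for Kif4, and 0.18 for Kif14. Among the 55 pairs of mitotic members the median rho was 0.0084.

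Cilium kinesins showed 1 member per contrast at most. Kif27, a relative of the Hedgehog regulator Kif7, stood at 3.37, 4.29 and 5.41 CPM in 5-Htt+/+ C and at 4.53, 5.19 and 5.65 CPM in SA, a difference of 0.22 (SE 0.10, unadjusted p = 0.034). All 6 cilium members were higher in SU than in C of 5-Htt+/+ (median 0.09, against -0.0061 for all genes), with no unadjusted p under 0.05. This count of 6 also stood without the 6 libraries. Kif24, which removes tubulin at the mother centriole, had the only three-way p under 0.05 at -0.33 (SE 0.15, unadjusted p = 0.035, not past the threshold after adjustment). Its means were 3.34 CPM in SA and 3.87 in SU of 5-Htt+/+, and 3.56 in SA and 3.28 in SU of 5-Htt+/-. Without the 6 libraries this contrast of Kif24 was -0.25 (unadjusted p = 0.090 in edgeR).

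Kif19a, a depolymerase that sets the length of motile cilia, was highest in 5-Htt+/- C. It stood there at 1.83, 2.49 and 3.59 CPM, against 1.76, 2.01 and 2.51 CPM in SA and 1.43, 2.04 and 2.61 CPM in SU. The log2 fold changes were -0.28 (SE 0.13) and -0.31 (SE 0.13). Averaged over C, SA and SU it was 0.20 higher in 5-Htt+/- than in 5-Htt+/+ (SE 0.08, unadjusted p = 0.015, adjusted p = 0.93). Its means in C, SA and SU were 2.53, 2.05 and 2.02 CPM in 5-Htt+/- and 1.87, 1.76 and 2.09 CPM in 5-Htt+/+. The gap was thus widest in C and had the opposite sign in SU. Kif19a lies 37.7 Mb from Slc6a4 on chromosome 11. Kif1c, the member nearest to Slc6a4 at 6.27 Mb, was 0.0088 higher (SE 0.04).

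Markers of multiciliated ependymal cells and of the choroid plexus moved with Kif27 in SA of 5-Htt+/+. There 12 of 12 tested markers were higher in SA than in C (median 0.33), 2 at an unadjusted p under 0.05, with a summed level of 17.0 to 26.5 CPM in C and 17.1 to 37.0 in SA. In 5-Htt+/- 11 of 12 were lower in SA than in C, and Kif27 was 0.19 (SE 0.11). Choroid plexus markers were higher in SA than in C in both genotypes, 11 of 11 each (medians 0.78 in 5-Htt+/+ and 0.47 in 5-Htt+/-). In SU against C of 5-Htt+/+, where all cilium members were higher, 10 of 12 ependymal markers were higher (median 0.13) and 10 of 11 choroid plexus markers were lower (median -0.18). The part of these cells in the cilium kinesin values was not tested. Deup1, the 13th marker, did not pass the filter. Within groups Kif9 had a rho of 0.65 with the ependymal markers and 0.54 with those of the choroid plexus, and Kif27 had 0.49 and 0.55. These were the highest among cilium members. The others ran from 0.02 (Kif7) to 0.31 (Kif6) with the ependymal markers, and from -0.20 (Kif7) to 0.35 (Kif24) with those of the choroid plexus. With the choroid plexus score as a term Kif27 was 0.16 in SA 5-Htt+/+ (unadjusted p = 0.0665).

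Of the other members, Kif26a, an atypical kinesin without ATPase activity, stood at 4.25, 5.20 and 7.02 CPM in SU of 5-Htt+/-, lower than C by a log2 fold change of -0.23 (SE 0.09, adjusted p = 0.26) and lower than SA, since SA minus SU was 0.19 (SE 0.09). Kif26b, Kif2a and Kif1bp had no unadjusted p under 0.05 in any contrast.

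Partners of the kinesins were read from a list of 19 genes that holds light chains, adaptors, kinesins of other names and dynein subunits. In 5-Htt+/- 14 of 19 were lower in SA and 15 of 19 in SU than in C (medians -0.12 and -0.13). At an unadjusted p under 0.05, 5 were lower and 1 higher in SA, and 8 were lower and 1 higher in SU. The minus-end motor Kifc3 was -0.21 in SU (SE 0.07, adjusted p = 0.17) and the adaptor Mapk8ip1 -0.20 (SE 0.07, adjusted p = 0.20). The member that was higher in SA was Cenpe, a mitotic kinesin named outside the Kif series, at 0.34 (SE 0.13). Their summed level was 3197 to 3981 CPM in C, 3282 to 3829 in SA and 3101 to 3634 in SU.

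Within groups the 630 pairs of members had a median Spearman rho of -0.04 (-0.78 to 0.84), so the family did not vary as 1 set. Pairs from a regular sample of all genes with at least 1 CPM had a median of 0.0035 (-0.90 to 0.99). After group means were subtracted from both, 8 of the 36 members had a Spearman rho of at least 0.5 with the first principal component over the 48 libraries, led by Kif2a (0.90), Kif5b (0.83) and Kif15 (0.73). Another 8 had a rho of -0.5 or less, led by Kif1a (-0.82), Kif3c (-0.77) and Kif1c (-0.67). Together these were 44.4% of members, against 38.4% of the 20028 genes with at least 1 CPM. Relatives fell on opposite sides, with Kif5b at 0.83 and Kif5a at -0.56, and with Kif3a at 0.58 and Kif3c at -0.77.

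The side followed base composition. Across the 36 members the rho with the component had a Spearman correlation of -0.75 with the GC content of their exons, and across 19912 genes it was -0.71. Genes are not independent replicates, and all of these values come from the same 48 libraries. Kif11 departed from it, since its exons hold 41.8% GC and its rho was -0.52. The part of base composition in the group differences was not tested.

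**Figure D4:**
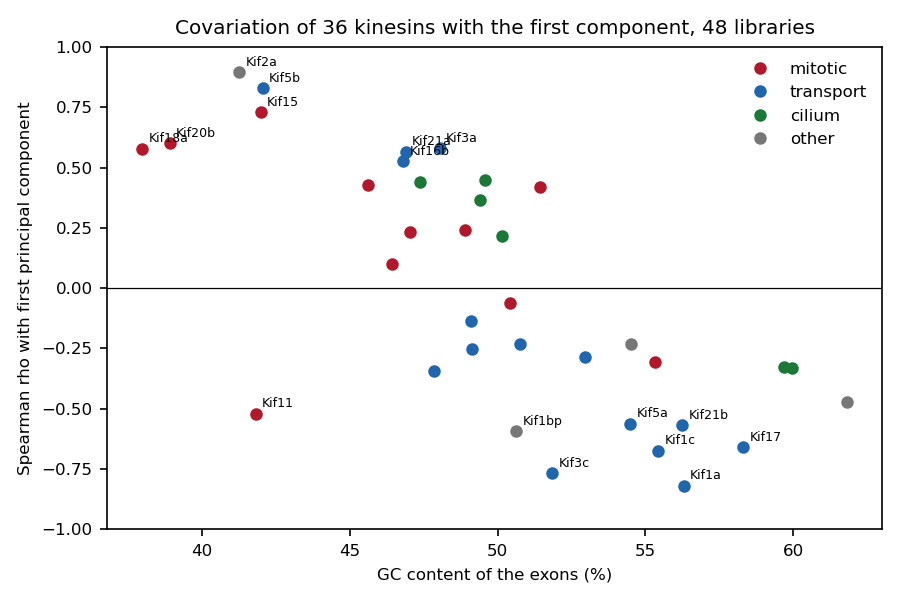
Spearman rho of each of 36 kinesins with the first principal component of 48 libraries, against the GC content of its exons in percent, with colours by role. AT-rich members such as Kif2a (rho 0.90) lie at the top and GC-rich members such as Kif1a (rho -0.82) at the bottom, and Kif11 lies low at 41.8% GC.

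The pairs of members with the closest course over the libraries were Kif3a and Kif21a (rho 0.84), Kif2a and Kif5b (0.83) and Kif1a and Kif3c (0.81). Kif5c, Kif3b and Kif3c had the highest rho with the neuronal markers among transport members, at 0.72, 0.68 and 0.58. The other transport members ran from 0.48 for Kif1b to -0.29 for Kif3a, with Kif5a at 0.27, so the set did not follow these markers as a whole. The genes closest to Kif14 were Mrpl40 (0.74), Rpl7-ps7 (0.70), Gm12184 (0.69), Rpl26-ps5 (0.68) and Rpl7 (0.68), among 20028 genes, and those closest to Kif5a were Raly (0.83), Slc25a5 (0.77), Phlda3 (0.77), Rpsa (0.76) and Tmem50a (0.75). Kif14 had a rho of 0.45 with the log of the library's depth, whereas Kif5a had 0.14.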

How the data were processed

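Whole-hippocampus RNA of 48 animals was sequenced, 1 library per animal. The deposited table holds raw counts, with no scaling by the authors. According to the submitters' processing notes, GRCm38.p5, STAR, HTSeq and DESeq2 were used, whereas the methods name Salmon for quantification. Versions of the aligner and counter, strandedness and the handling of multimapping reads were not found in these sources. Reads shared with paralogs, pseudogenes or overlapping genes may therefore be split or lost. Columns were assigned to samples by the description in the labels, and 0 columns of other samples were present. No pair of libraries within a group agreed within sampling noise (169 pairs, smallest chi-square per gene 2.47).

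A gene entered the fit if 3 or more libraries held 5 or more of its reads (31208 of 48440 genes). The model was fitted in edgeR 4.0.16 (R 4.3.3) with upper quartile scaling, 1 mean per group over all 48 libraries and 8 contrasts. Quasi-likelihood p-values were adjusted by Benjamini-Hochberg over all genes tested, and log2 CPM used a prior count of 2. Exact permutation tests were run on CPM of Kif14, Kif5a and Kif1a. Alternatives used DESeq2 1.42.0, other edgeR tests, scalings and filters, the replicate number as a block, a choroid plexus score and each library left out in turn. Promoters came from RefSeq (GRCm38.p6).

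The members, gene lists and tests were chosen with earlier results of these data known. Genes named with tests were Kif14, Kif5a, Kif1a, members with an unadjusted p under 0.05 in any contrast, for each role the highest 2 levels, the lowest level and the smallest 2 p-values, members that failed the filter, Slc6a4, at most 2 genes per companion list, and the nearest genes and pairs. Other members are given by their level, so that each member is accounted for, or by a fold change or correlation chosen after the values were seen, as are the markers of other cell types named. Nothing in the labels gives the litter, so p-values measure the spread between these animals only.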

Additional observations from a re-analysis of the deposited data

Results flagged for a closer look

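In 138 combinations of a kinesin and a group, 10 had 1 library far from the others by Dixon's criterion, and chance gives about 1 in 20. Among mitotic members, Kif23 was low at 0.290 CPM in 5-Htt+/+ SU replicate 3 (others 0.720 to 1.02), Kif20b was low at 0.416 CPM in 5-Htt+/+ C replicate 7 (others 0.897 to 1.18), and Kif11 was high at 50.1 CPM in 5-Htt+/- SA replicate 7 (others 40.2 to 44.1). Among transport members, Kif13a was low at 25.2 CPM in 5-Htt+/+ SU replicate 8 (others 28.8 to 31.0) and high at 31.4 CPM in 5-Htt+/+ SA replicate 5 (others 27.5 to 28.7).

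Of the cilium members, Kif24 was low at 2.50 CPM in 5-Htt+/- C replicate 1 (others 3.25 to 3.68) and Kif27 was high at 6.73 CPM in 5-Htt+/- SA replicate 3 (others 4.10 to 5.16). Kif26a was high at 7.78 CPM in 5-Htt+/- SA replicate 7 (others 5.20 to 6.29) and at 7.31 CPM in 5-Htt+/+ C replicate 7 (others 5.02 to 5.83), and Kif26b was low at 20.5 CPM in 5-Htt+/+ C replicate 3 (others 28.2 to 34.3).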

How the results depend on the processing

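No kinesin was called by edgeR or DESeq2 in any of the 487 combinations of contrast and setting. Of 4725 alternative values of 95 results, 4620 were counted as the same, 89 as moved and 16 as reversed. These totals are a weak measure of stability, since the main fit called 0 kinesins and 48 of the settings only left out 1 library, beside 14 others. Single genes counted as the same if they kept their sign and their side of the threshold. Counts did so within a set ratio, and list medians if they shifted by less than their within-group SD, whatever their sign. The mitotic median between genotypes, 0.0019 and -0.014 with the replicate block, was so counted. Causes were not tested. The counts of kinesins at an unadjusted p under 0.05 changed as follows. In SA against C of 5-Htt+/+ there was 1 with DESeq2 or without the 6 lowest libraries and 0 with the choroid plexus term. In SU against C of 5-Htt+/+ there was 1 with the likelihood ratio test, DESeq2, the replicate block or only the groups compared. In SA against SU of 5-Htt+/+ there was 1 without a filter, with the block or the choroid plexus term, and 2 with the component as a term or without the 6 libraries. In SA against SU of 5-Htt+/- there was 1 with the earlier quasi-likelihood form and 0 with the block. In SA against C of 5-Htt+/- there were 8 with the replicate block, 1 with the component and 0 without the 6 libraries, and in SU against C 3 and 0 for the last pair. The component gave 3 in the three-way contrast and 5 between genotypes. The component and the removal of 6 libraries were chosen after seeing the data.

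The transport median in 5-Htt+/- was 0.0063 in SA and -0.0076 in SU with the component, and 0.012 in SA without the 6 libraries. Kif14 in 5-Htt+/+ changed sign in SA with the choroid plexus term (0.0060) and without the 6 libraries (0.040), and in SU without them (0.026). The Kif1a CPM difference of SA and C in 5-Htt+/+ became 2.77 with TMM and 0.0042 on log2 CPM.

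With 1 library left out, the counts ran from 0 to 2 (three-way, and SA against C and against SU in 5-Htt+/+), 1 to 2 (SU against C, 5-Htt+/+), 3 to 11 (SA and SU against C, 5-Htt+/-), 0 to 4 (SA against SU, 5-Htt+/-) and 2 to 4 (genotypes). Kif14 ran from -0.071 to 0.038 and -0.084 to 0.024 (SA and SU against C, 5-Htt+/+), -0.11 to 0.0094 (SU against C, 5-Htt+/-) and -0.034 to 0.062 (SA against SU, 5-Htt+/+). Replicate numbers did not pair libraries: the median correlation over 115 same-numbered pairs was -0.0044, and 6 of 48 libraries correlated best with their own number. Reads limit the lowest genes, with 1 to 17 reads per library for Kif2c, 2 to 22 for Kif18b, 6 to 50 for Kif23 and 8 to 47 for Kif20b.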
